A study of Mus musculus with 12 samples.

Results

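The β-globin genes of the mouse lie inside the large cluster of class I odorant receptor (OR) genes on chromosome 7, and 9 genes of that place were examined. *Olfr67*, *Olfr68* and *Olfr69* are the nearest receptor genes on the 3′ side of the globin genes, *Olfr64*, *Olfr65* and *Olfr66* are the nearest on the 5′ side, and the β-like globin genes *Hbb-bh1*, *Hbb-bh2* and *Hbb-y* lie between them. The genes were chosen by name and place. Each was read from the 1 probe set (the group of probes that gives 1 value per gene) whose platform annotation carries that symbol alone, which gave 9 of the 35556 probe sets of the array, and all 9 were measured in every mouse. The 6 receptors are among the OR probe sets that the study listed and among the 128 of these that stand for intact class I genes of the cluster, a few genes having more than 1 probe set.

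The tissue was the main olfactory epithelium (MOE), whose total RNA was hybridised to 1 Affymetrix Mouse Gene 1.0 ST array per mouse for 6 ΔJ mice and 6 controls. The ΔJ mice were homozygous for a CRISPR-Cas9 deletion of the J element, an enhancer of class I OR genes near one end of the cluster, and the controls were wild-type littermates. The deletion was made in a B6C3F1 hybrid egg, and all ΔJ mice descend from 1 founder that was backcrossed to C57BL/6NCrSlc, so that 1 deletion allele was tested. According to the paper, heterozygotes of the second backcross generation were used for the arrays. The strain is labelled C57BL/6 in both genotypes. Whether DNA of the other parental strain of the hybrid remains beside the deletion is not given. Males numbered 3 among the ΔJ mice and 2 among the controls, and the rest were females. Mice were taken at postnatal day 30, except replicate 6 of ΔJ and replicates 5 and 6 of wild-type at day 33. The question was whether loss of the J element lowered the receptor genes on either side of the globin genes, and whether the globin genes in between moved with them.

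Each mature olfactory sensory neuron (OSN) expresses 1 OR gene, a receptor for odorants, from 1 allele, and enhancers in or beside the OR clusters raise the chance that a gene of the cluster is chosen. The β-like globin genes encode the β chains of hemoglobin, the oxygen carrier of red blood cells. *Hbb-y* and *Hbb-bh1* are the embryonic genes, used by the first red cells of the yolk sac, and *Hbb-bt* and *Hbb-bs* are the adult genes. In red cell precursors they are driven by the locus control region, an erythroid enhancer on the 5′ side of *Hbb-y*. MOE RNA is a mixture of many cell types, so fewer neurons using a gene and less RNA per neuron cannot be told apart in any value below.

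In GRCm38.p6 coordinates, in order from the side of the J element, *Olfr69* lies at chr7:103767277-103771594, *Olfr68* at chr7:103777396-103778343, *Olfr67* at chr7:103787212-103791830, *Hbb-bh2* at chr7:103838801-103840734, *Hbb-bh1* at chr7:103841638-103843162, *Hbb-y* at chr7:103851754-103853207, *Olfr66* at chr7:103881306-103882241, *Olfr64* at chr7:103892810-103894471 and *Olfr65* at chr7:103906342-103907447. The 9 genes span 140 kb, from 1.26 Mb (*Olfr69*) to 1.40 Mb (*Olfr65*) from the middle of the deleted element. *Olfr67* is separated from the adult gene *Hbb-bt* by 20.7 kb and *Hbb-y* from *Olfr66* by 28.1 kb. All receptor members are on the minus strand, like *Hbb-y* and *Hbb-bh2*, except *Olfr65*, the farthest from the J element, which is on the plus strand. The 250 bases before the annotated start are shown, 5′ to 3′ on the strand of the gene, for 1 called and 1 uncalled receptor on each side and for *Hbb-y*, from RefSeq (GRCm38.p6; chr7:103771595-103771844 for *Olfr69*, chr7:103791831-103792080 for *Olfr67*, chr7:103894472-103894721 for *Olfr64*, chr7:103906092-103906341 for *Olfr65* and chr7:103853208-103853457 for *Hbb-y*). Capitals mark TATAAA, read on either strand, in the receptor windows, and CCAAT and CACCC, known elements of globin promoters, in that of *Hbb-y*.
Olfr69: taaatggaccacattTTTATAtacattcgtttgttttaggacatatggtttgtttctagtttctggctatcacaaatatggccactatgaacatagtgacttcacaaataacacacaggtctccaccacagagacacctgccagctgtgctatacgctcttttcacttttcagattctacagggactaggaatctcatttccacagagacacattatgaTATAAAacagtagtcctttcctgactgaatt
Olfr67: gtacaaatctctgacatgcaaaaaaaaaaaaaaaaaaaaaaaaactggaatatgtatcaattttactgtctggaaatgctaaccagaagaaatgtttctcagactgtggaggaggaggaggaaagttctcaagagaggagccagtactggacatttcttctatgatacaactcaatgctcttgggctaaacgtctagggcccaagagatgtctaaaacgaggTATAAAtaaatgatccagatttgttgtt
Olfr64: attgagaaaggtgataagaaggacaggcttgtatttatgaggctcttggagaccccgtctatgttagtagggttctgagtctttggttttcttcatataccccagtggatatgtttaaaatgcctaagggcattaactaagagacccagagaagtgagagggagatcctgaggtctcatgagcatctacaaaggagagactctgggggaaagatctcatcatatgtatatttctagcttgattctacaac
Olfr65: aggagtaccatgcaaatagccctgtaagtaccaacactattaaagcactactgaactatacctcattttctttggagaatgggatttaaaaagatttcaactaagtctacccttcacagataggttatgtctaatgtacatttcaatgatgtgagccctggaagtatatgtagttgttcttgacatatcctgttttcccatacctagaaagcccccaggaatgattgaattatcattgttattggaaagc
Hbb-y: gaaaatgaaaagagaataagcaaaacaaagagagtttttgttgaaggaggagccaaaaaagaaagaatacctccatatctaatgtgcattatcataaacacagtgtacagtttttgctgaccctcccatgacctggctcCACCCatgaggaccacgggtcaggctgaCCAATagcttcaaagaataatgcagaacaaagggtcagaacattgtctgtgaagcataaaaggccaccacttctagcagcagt

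The windows of *Olfr69* and *Olfr67* both held TATAAA just before the start, its first letter 31 and 28 bases away, and *Olfr69* held it again on the other strand 235 bases away. Those of *Olfr64* and *Olfr65* held none. Of the windows of 109 receptor genes of the class I cluster 37.6% held TATAAA, against 12.4% of all 32817 RefSeq windows of this length. A homeodomain site (TAAT followed by GA, GG, TA or TG, on either strand), the kind of site found in OR enhancers and promoters, was in 53.2% of the class I windows and 22.8% of all windows. Among the receptor members it was found only before *Olfr68*, as TAATTA and TAATGA with first letters 215 and 93 bases from the start. The annotations of *Olfr68* and *Olfr66* begin at the start codon, so their windows lie before the coding sequence and not before a mapped transcript start. In *Hbb-y* CCAAT and CACCC stood 83 and 111 bases before the start, and these letters, on either strand, were in 33.8% and 52.0% of all windows. The run AAACTTTTC, conserved in the J element, was in none of the members' windows and in 0.363% of all. RefSeq windows were matched for all members except *Hbb-bh1*. That of *Hbb-bh2*, chr7:103840522-103840771, lies mostly inside the gene as placed above and not before it. These matches describe the letters only.

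The arrays fell into 2 sets that cut across genotype, replicates 1 to 3 and replicates 4 to 6 of each, with a standard deviation over all probe sets of 2.07 to 2.13 and 2.20 to 2.23. The sets are a property of the values, and what they stand for is not given in the labels. At an adjusted p under 0.05 from limma, 56.1% of the OR probe sets and 42.2% of all probe sets differed between the sets, so every result below is also given within them where they matter. Levels are log2 signals minus the 75th percentile of the array. A gene was called when its fold change was beyond 1.3 at an adjusted p under 0.05, over the OR probe sets for receptors and over all probe sets for globin genes. Levels of different probe sets are not compared, since their probes differ, except with Y-linked genes in female mice as a rough gauge of dim signal. The precision is limited by the number of mice, 6 per genotype.

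Of the 6 receptors, 4 fell in ΔJ mice, to between 47.7% and 51.8% of the wild-type signal: *Olfr69* and *Olfr68* on the 3′ side and *Olfr66* and *Olfr64* on the 5′ side. *Olfr67* and *Olfr65* were not called, and no globin gene was. Among all OR probe sets 6.18% were called decreased and 0.0824% increased, and among the intact class I probe sets 57% were decreased, a share near that of 4 in 6. The globin genes are read against 0.135% of all probe sets called in either direction. The median log2 fold change of the 6 receptors was -0.97, beside -0.52 for the other 122 intact class I probe sets and -0.048 for all OR probe sets.

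**Figure D1:**
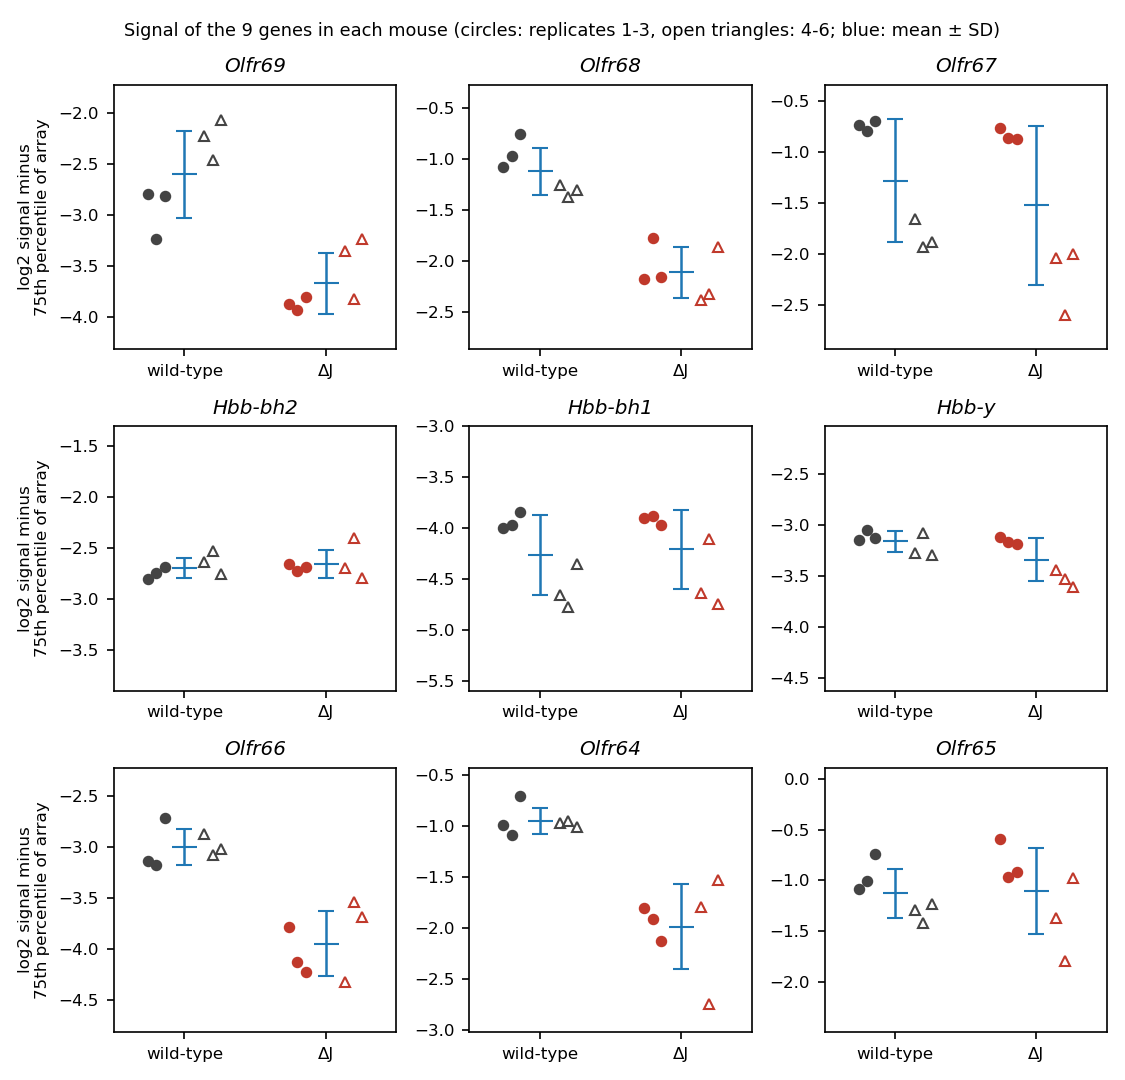
Log2 signal minus the 75th percentile of the array (vertical axis) of the 9 genes in wild-type (grey) and ΔJ (red) mice, in chromosomal order from top left. Each point is 1 mouse, filled circles being replicates 1 to 3 and open triangles replicates 4 to 6, blue bars are mean ± SD (n = 6), and every panel spans the same number of log2 units. *Olfr68*, *Olfr66* and *Olfr64* separate by genotype, *Olfr67* separates by replicate set instead, and *Olfr65* and the globin genes overlap between genotypes.

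*Olfr69*, the receptor gene of the group nearest to the J element, ranged in wild-type mice from -3.24 to -2.07 with a median of -2.63, and in ΔJ mice from -3.94 to -3.24 with a median of -3.82. The highest ΔJ mouse met the lowest wild-type mouse at -3.24. Within each replicate set all ΔJ mice lay below all wild-type mice, which was so for 10.7% of OR probe sets and 71.9% of intact class I probe sets in replicates 1 to 3, and for 10.9% and 68% in replicates 4 to 6. The wild-type mean was -2.61 ± 0.43 and the ΔJ mean -3.67 ± 0.30 (SD, n = 6 each), a log2 change of -1.07 with a 95% interval of -1.48 to -0.66 and a standard error of 0.19 (limma adjusted p = 0.00142). When the model was fitted and p-values were adjusted over all probe sets in place of the OR probe sets, *Olfr69* was not called (limma adjusted p = 0.0762). With the replicate set as a block in that same fit, which was added after the data were seen, it was called (limma adjusted p = 0.0017).

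*Olfr68*, next to it, ranged from -1.37 to -0.76 (median -1.17) in wild-type and from -2.38 to -1.77 (median -2.17) in ΔJ mice. The genotypes did not overlap, which held for 5.36% of the OR probe sets and 49.2% of intact class I probe sets with ΔJ lower. From -1.12 ± 0.23 in wild-type the mean fell to -2.11 ± 0.25 in ΔJ mice (SD, n = 6 each), a log2 change of -0.99 with a 95% interval of -1.29 to -0.70 and a standard error of 0.14 (limma adjusted p = 0.000144).

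*Olfr67*, the receptor gene next to the globin genes on this side, split by replicate set and not by genotype. In replicates 1 to 3 it lay between -0.79 and -0.69 in wild-type and between -0.87 and -0.76 in ΔJ mice, and in replicates 4 to 6 between -1.93 and -1.65 and between -2.59 and -2.0. The ΔJ mice of the second set were all below its wild-type mice, while those of the first overlapped them, a separation to be read against the 68% of intact class I probe sets given above. Over all mice the level ranged from -1.93 to -0.69 (median -1.22) in wild-type and from -2.59 to -0.76 (median -1.44) in ΔJ mice. The estimate was -0.24 on the log2 scale with a 95% interval of -0.96 to 0.47 and a standard error of 0.34 (limma adjusted p = 0.995), and this interval holds both no change and a fall as large as that of *Olfr66*. Leaving out 1 mouse moved the estimate between -0.39 and -0.028, the latter without ΔJ replicate 5. With the replicate set in the model the estimate kept its value and its interval narrowed to -0.47 to -0.011 (limma adjusted p = 0.377), and it was not called. The difference between the sets themselves, -1.23 for replicates 4 to 6 minus 1 to 3 (adjusted p = 1.9e-06 from limma), was larger than the genotype difference of any of the 9 genes.

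On the 5′ side, *Olfr66*, the receptor gene beyond the locus control region, ranged from -3.17 to -2.71 (median -3.04) in wild-type and from -4.32 to -3.53 (median -3.95) in ΔJ mice, with no overlap. The mean fell from -3.0 ± 0.18 in wild-type to -3.94 ± 0.32 in ΔJ mice (SD, n = 6 each), a log2 change of -0.95 with a 95% interval of -1.26 to -0.64 and a standard error of 0.15 (limma adjusted p = 0.000372). *Olfr64* ranged from -1.08 to -0.70 (median -0.98) in wild-type and from -2.75 to -1.53 (median -1.86) in ΔJ mice. Again the genotypes did not overlap, and the lowest ΔJ mouse, replicate 5 at -2.75, stood below the next at -2.12. The *Olfr64* mean fell from -0.95 ± 0.13 to -1.99 ± 0.42 (SD, n = 6 each), a log2 change of -1.04 with a 95% interval of -1.39 to -0.68 and a standard error of 0.17 (limma adjusted p = 0.00054).

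*Olfr65*, the outermost gene on this side and the only member receptor on the plus strand, ranged from -1.41 to -0.75 (median -1.16) in wild-type and from -1.79 to -0.59 (median -0.97) in ΔJ mice. Both the lowest and the highest value came from ΔJ mice, replicates 5 and 1, and the genotypes overlapped fully. Wild-type averaged -1.13 ± 0.24 and ΔJ -1.10 ± 0.42 (SD, n = 6 each), a difference of 0.024 on the log2 scale with a 95% interval of -0.36 to 0.41 and a standard error of 0.18 (limma adjusted p = 0.995). This interval does not reach the falls of *Olfr69*, *Olfr68*, *Olfr66* and *Olfr64*, and it covers changes from 78.1% to 132% of wild-type.

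No RNA of Y-linked genes is present in female mice, so the signal of such genes in the 7 females gauges how dim a probe set can be. It was -4.23 to -3.05 for *Kdm5d*, -5.09 to -4.07 for *Uty* and -5.30 to -4.73 for *Eif2s3y*, so that probe sets without RNA differed widely among themselves. The ΔJ means of *Olfr69* and *Olfr66* lay within the range of *Kdm5d* and above the ranges of *Uty* and *Eif2s3y*. In single mice *Olfr66* lay within the range of *Uty* in ΔJ replicates 2, 3 and 4 (-4.13, -4.22 and -4.32). Some wild-type mice also lay within the range of *Kdm5d*. They were replicates 1, 2 and 5 for *Olfr66* (-3.14, -3.17 and -3.07) and replicate 2 for *Olfr69* (-3.24). None of these ranges is a limit for the members, whose own background was not measured, and whether their fold changes are understated is not known. *Olfr68* and *Olfr64* stayed above all 3 ranges in every mouse.

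None of the 3 globin genes was called, none had an unadjusted p under 0.05 in limma with genotype alone, and their log2 fold changes lay between -0.18 and 0.058. None had all ΔJ mice below all wild-type mice, as 0.259% of all probe sets did. *Hbb-bh2* ranged from -2.81 to -2.54 (median -2.72) in wild-type and from -2.80 to -2.40 (median -2.70) in ΔJ mice, with means of -2.70 ± 0.10 and -2.66 ± 0.14 (SD, n = 6 each). Its log2 fold change of 0.033 with a standard error of 0.075 (limma adjusted p = 0.993) had the narrowest interval of the 9 genes, -0.13 to 0.20, or 91.4% to 115% of the wild-type signal. The interval does not reach the falls of the receptors on either side, and how far the signal of this probe set stands above background is not known.

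The embryonic gene *Hbb-bh1* ranged from -4.78 to -3.84 (median -4.17) in wild-type and from -4.75 to -3.88 (median -4.04) in ΔJ mice. Both genotypes were higher in replicates 1 to 3 (-4.00 to -3.84 in all 6 mice) than in replicates 4 to 6 (-4.78 to -4.11), a set difference of -0.62 (adjusted p = 0.000754 from limma). Its mean was -4.27 ± 0.39 in wild-type and -4.21 ± 0.39 in ΔJ mice (SD, n = 6 each), a difference of 0.058 on the log2 scale with a 95% interval of -0.39 to 0.50 and a standard error of 0.20 (limma adjusted p = 0.994). Both means lay within the range of *Uty* in females, near the lower end of that of *Kdm5d* and above that of *Eif2s3y*, and how far this signal stands above background is not known.

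*Hbb-y*, the embryonic gene next to the locus control region, ranged from -3.30 to -3.05 (median -3.14) in wild-type and from -3.61 to -3.12 (median -3.32) in ΔJ mice. In replicates 1 to 3 the genotypes overlapped, between -3.15 and -3.05 in wild-type and between -3.19 and -3.12 in ΔJ mice. In replicates 4 to 6 they did not, with -3.30 to -3.09 in wild-type and -3.61 to -3.44 in ΔJ mice. Such a separation was shown by 8.95% of all probe sets in replicates 4 to 6 and by 5.65% in replicates 1 to 3. Over all mice the means were -3.16 ± 0.10 and -3.34 ± 0.21 (SD, n = 6 each), a difference of -0.18 on the log2 scale with a 95% interval of -0.39 to 0.029 and a standard error of 0.10 (limma adjusted p = 0.993). It was -0.049 in the first set and -0.31 in the second, and the interaction test of these did not pass (limma unadjusted p = 0.0336, adjusted p = 0.909). With the replicate set in the model the interval was -0.32 to -0.040 (limma unadjusted p = 0.0163, adjusted p = 0.606), still short of a call. That interval does not reach the log2 fold change of -0.95 of *Olfr66*, the nearest receptor gene. With the replicate number as a block the limma unadjusted p of *Hbb-y* was 0.038 (adjusted p = 0.618), again not a call. Both means of *Hbb-y*, like the ΔJ mean of *Olfr66*, lay within the range of *Kdm5d* in females and above those of *Uty* and *Eif2s3y*. Whether the change of either gene is understated is not known.

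A called and an uncalled gene side by side need not differ from each other, so the change was compared between each of the 8 pairs of neighbouring members, as the difference of their log2 levels in each mouse, by an exact two-sided permutation test over every split of the 12 mice (smallest possible p = 0.00216). *Olfr64* fell more than *Olfr65*, by a difference of -1.06 (exact p = 0.00216, adjusted p = 0.0173 over the 8 pairs), and this difference of levels did not overlap between genotypes. *Olfr66* fell more than *Hbb-y* changed, the difference of *Hbb-y* minus *Olfr66* being 0.77 (exact p = 0.0108, adjusted p = 0.0433). Both means of *Hbb-y* lay within the range of *Kdm5d* in females, so whether its probe set could show such a fall is not known. The call of this pair was lost in 5 of the 12 runs that left out 1 mouse, with a difference between 0.68 and 0.89 in all of them: it was lost without wild-type replicate 1, 3, 4, 5 or 6. Neither call held in the day 30 mice alone (exact permutation adjusted p = 0.0952 for both). There *Hbb-y* minus *Olfr66* was 0.88 and *Olfr64* minus *Olfr65* was -1.04. That run has fewer mice and fewer splits, so its smallest possible p is larger. Adjusted over the 8 pairs, no pair could pass there by itself, so nothing is concluded from the loss. With the replicate number as a block neither passed (exact sign-flip adjusted p = 0.0625 for both). Both pairs were at the smallest possible p of that test, 0.0312. Their adjusted p then depends on how many of the 8 pairs reach it, so nothing is concluded from this test.

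On the 3′ side *Olfr68* minus *Olfr67* was -0.75 and did not pass (exact p = 0.0649, adjusted p = 0.173), with -1.01 in replicates 1 to 3 and -0.49 in replicates 4 to 6. When genotypes were permuted only within the replicate sets, a test added after the data were seen (400 splits, smallest possible p = 0.005), this pair passed as did the pairs *Olfr64* with *Olfr65* and *Hbb-y* with *Olfr66* (exact p = 0.005 and adjusted p = 0.0133 for all 3). *Olfr67* minus *Hbb-bh2*, across the adult globin genes, was -0.28 (exact permutation p = 0.465, adjusted p = 0.745), and -0.0089 without ΔJ replicate 5. Between neighbouring receptors that both fell no difference passed, at -0.077 for *Olfr69* minus *Olfr68* (exact permutation adjusted p = 0.935) and 0.087 for *Olfr66* minus *Olfr64* (exact permutation adjusted p = 0.935). The globin genes gave -0.025 for *Hbb-bh2* minus *Hbb-bh1* and 0.24 for *Hbb-bh1* minus *Hbb-y* (exact permutation adjusted p = 0.935 and 0.459).

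**Figure D2:**
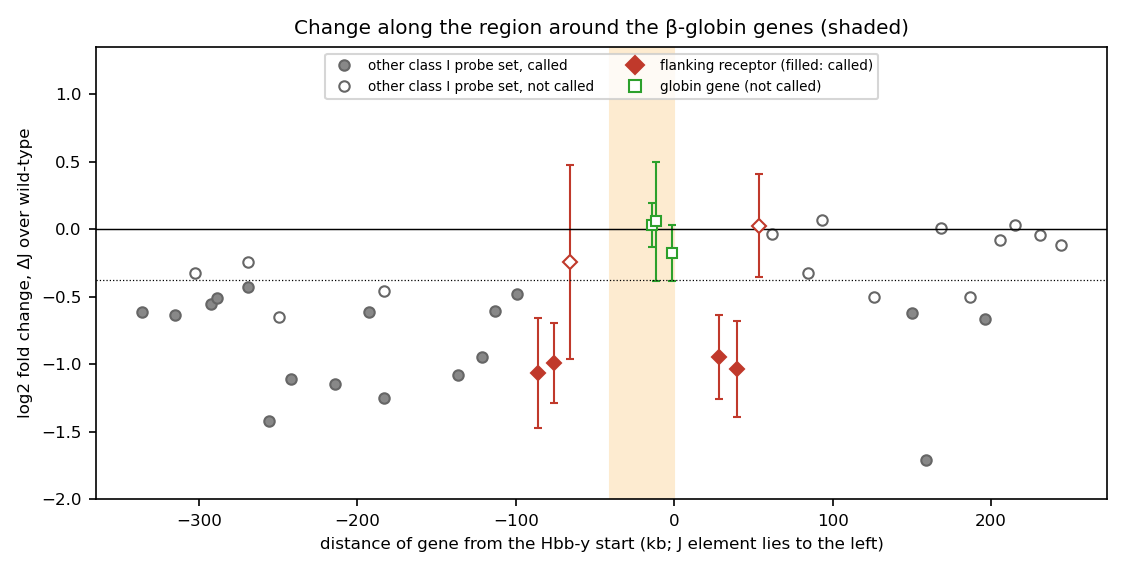
Log2 fold change of ΔJ over wild-type (vertical axis) against the distance of each gene from the start of *Hbb-y* in kb (horizontal axis; the J element lies to the left). Red diamonds are the 6 flanking receptors and green squares the 3 globin genes, with 95% intervals, grey circles are other intact class I probe sets, filled symbols were called, shading spans *Hbb-bt* to *Hbb-y*, and the dotted line is the 1.3-fold criterion. The receptors *Olfr69*, *Olfr68*, *Olfr66* and *Olfr64* lie near -1 on both sides of globin genes that lie near 0.

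The map of changes around the globin genes sets the members among the 31 other intact class I probe sets, at 29 gene positions, within 0.25 Mb of the outermost members. Of these probe sets 17 were called decreased, with a median log2 fold change of -0.51. On the side of the J element 14 of 18 were called, over a range of -1.42 to -0.24, and on the far side 3 of 13, over a range of -1.71 to 0.066. Counting only probe sets of a single symbol, 12 of 15 were called on the J side and 3 of 13 on the far side. The called probe sets on the J side were *Olfr611*, *Olfr615*, *Olfr616*, *Olfr617*, *Olfr618*, *Olfr620*, *Olfr622*, *Olfr623*, *Olfr243*, *Olfr628*, *Olfr629*, *Olfr630* and 2 shared with a neighbour, *Olfr612* with *Olfr611* and *Olfr624* with *Olfr620* and *Olfr621-ps1*. The probe sets of 1 position did not always give the same call: that of *Olfr624* alone had -0.46 (adjusted p = 0.623 from limma), and a second one of *Olfr617*, shared with *Olfr625-ps1*, had -0.24 (adjusted p = 0.995 from limma). *Olfr630*, the nearest to *Olfr69*, had a log2 fold change of -0.48 (adjusted p = 0.00948 from limma). On the far side *Olfr638* (-0.62), *Olfr639* (-1.71) and *Olfr642* (-0.66) were called, and *Olfr631*, the nearest to *Olfr65*, had -0.038 (adjusted p = 0.995 from limma). Between *Olfr64* and *Olfr638*, the next called gene on that side, *Olfr65*, *Olfr631* (-0.038), *Olfr632* (-0.32), *Olfr633* (0.066) and *Olfr635* (-0.50) were not called. Whether the shares on the 2 sides differ was not tested.

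The replicate sets moved the levels of several members. *Olfr69* was higher in replicates 4 to 6 than in 1 to 3 by 0.55 (adjusted p = 0.00188 from limma), whereas *Olfr65* was lower (-0.46, adjusted p = 0.00689) and *Hbb-y* was lower (-0.24, adjusted p = 0.0104). Of the 9 members, 5 differed between sets at an adjusted p under 0.05, against the 56.1% and 42.2% given above, shares near that of the members. The genotype differences of the 4 called receptors were -0.92 and -1.22 for *Olfr69*, -1.10 and -0.88 for *Olfr68*, -1.04 and -0.86 for *Olfr66* and -1.02 and -1.05 for *Olfr64* in the first and second set. Those of the uncalled members were -0.096 and -0.39 for *Olfr67*, 0.12 and -0.068 for *Olfr65*, 0.055 and 0.011 for *Hbb-bh2*, 0.020 and 0.096 for *Hbb-bh1* and -0.049 and -0.31 for *Hbb-y*. No member passed a test of its genotype difference between the sets (lowest adjusted p = 0.909 from limma, for *Hbb-y*). In replicates 4 to 6 alone *Olfr66* (limma adjusted p = 0.0656) and *Olfr64* (limma adjusted p = 0.105) were not called. With the set in the model the same 4 receptors were called, beside 7.01% of OR probe sets decreased and 64.8% of intact class I probe sets, and with the replicate number as a block they were called beside 6.92% of OR probe sets. With the set in the model the interval of *Olfr69* narrowed to -1.33 to -0.81. No member passed a test of its genotype difference between the sexes (lowest adjusted p = 0.968 from limma), and the day 33 mice are all in the second set.

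**Figure D3:**
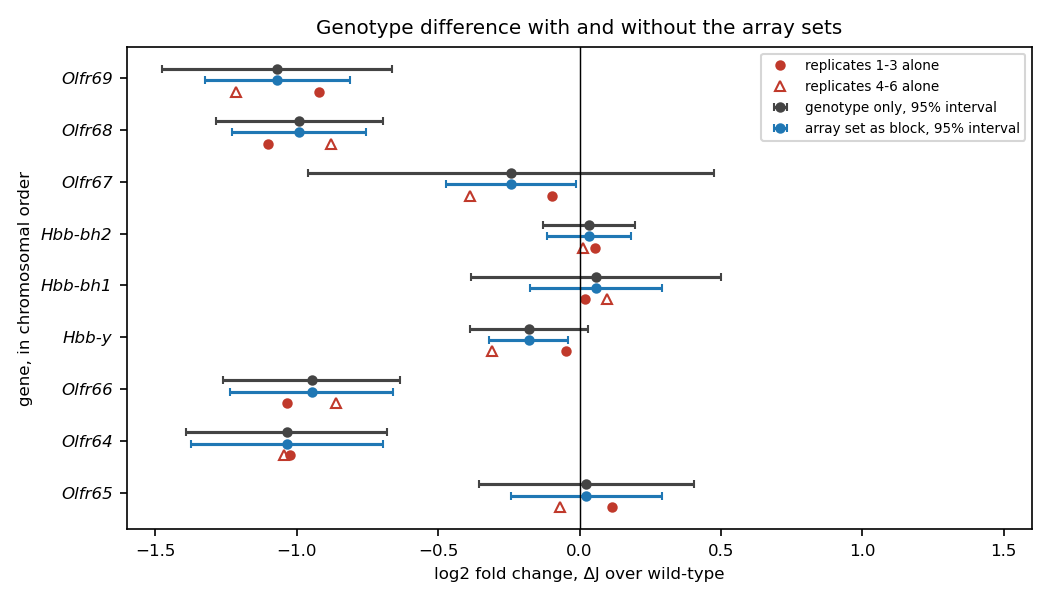
Log2 fold change of ΔJ over wild-type (horizontal axis) for the 9 genes in chromosomal order (vertical axis). Grey points are the fit with genotype alone and blue points the fit with the replicate set as a block, both with 95% intervals, and red symbols are the difference within replicates 1 to 3 (circles) and 4 to 6 (triangles). The block narrows the intervals of *Olfr67*, *Olfr69*, *Olfr65*, *Hbb-bh1* and *Hbb-y*, and the 4 called receptors stay below -0.6 in every estimate. With the block the intervals of *Olfr67* and *Hbb-y* lie wholly on the side of a fall, though neither gene was called.

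The adult globin genes were measured only on probe sets shared by several symbols, so they are given as the joint signal of *Hbb-bt*, *Hbb-bs*, *Hbb-b1* and *Hbb-b2*. The first such probe set ranged from 2.83 to 4.06 (median 3.19) in wild-type and from 2.74 to 4.64 (median 3.33) in ΔJ mice. The highest values were those of ΔJ replicates 4 and 5 (4.64 and 4.44), and the mice differed by up to 3.72-fold with overlapping genotypes. The mean differed by 0.23 on the log2 scale, with a standard error of 0.34 (limma adjusted p = 0.993), and it differed by 0.21 on the second such probe set and by 0.068 and 0.10 on the 2 shared by the adult α-globin genes *Hba-a1* and *Hba-a2*. *Alas2*, which encodes the first enzyme of heme synthesis in red cell precursors, was also highest in ΔJ replicates 4 and 5, at 0.59 and 0.031, and had a log2 fold change of 0.30 (adjusted p = 0.993 from limma). The mouse-to-mouse range of adult globin was not seen in the 3 single globin genes, whose values in ΔJ replicates 4 and 5 were -2.70 and -2.40 for *Hbb-bh2*, -4.64 and -4.11 for *Hbb-bh1* and -3.44 and -3.53 for *Hbb-y*. Of these, -2.40 was the highest *Hbb-bh2* value of all mice, and -4.11 the highest *Hbb-bh1* value in replicates 4 to 6. Both *Hbb-y* values lay below every wild-type mouse. The part of blood in the members' values was not tested beyond these values.

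**Figure D4:**
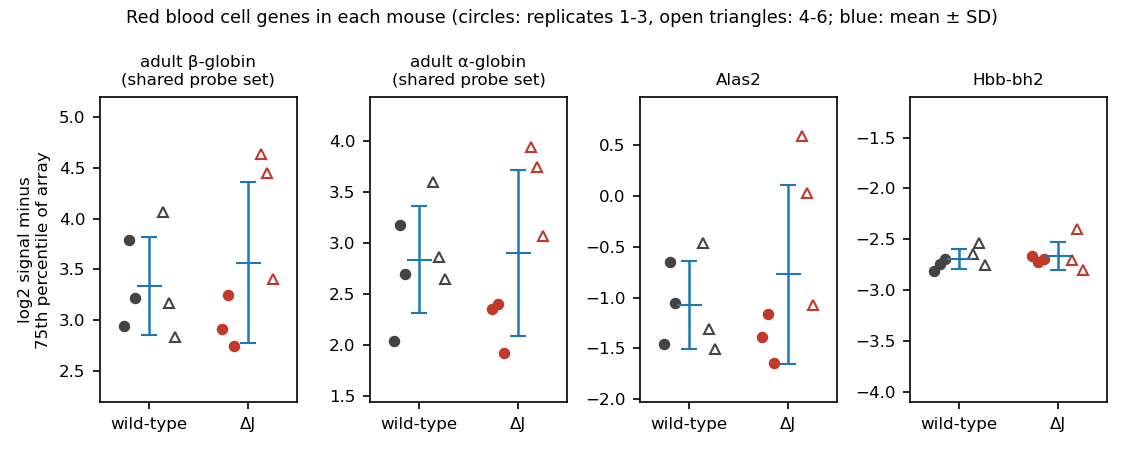
Log2 signal minus the 75th percentile of the array (vertical axis, each panel spanning the same number of log2 units) of a probe set shared by the adult β-globin genes, one shared by the adult α-globin genes, *Alas2* and *Hbb-bh2* in wild-type (grey) and ΔJ (red) mice. Points are mice, circles being replicates 1 to 3 and triangles 4 to 6, and blue bars are mean ± SD (n = 6). The adult globin and *Alas2* panels spread widely in both genotypes with ΔJ replicates 4 and 5 at the top, while *Hbb-bh2* stays between -2.81 and -2.40. Its highest mouse is ΔJ replicate 5.

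No gene of the lists of red cells, blood, vessels and mature OSNs was called. Of the other hemoglobin subunits 3 of 9 had a probe set of their own, and none was called: *Hba-x*, the embryonic α-like gene, had a log2 fold change of -0.017 and *Hbq1a* one of -0.026. Their summed level (the log2 of the summed linear signals, relative to the 75th percentile) was -1.03 to -0.54 in wild-type and -1.25 to -0.76 in ΔJ mice. Of 13 erythroid genes 10 were measured and 0 called. *Slc4a1*, the anion exchanger of the red cell membrane, had -0.015, and the summed level of the list was 1.05 to 1.46 in wild-type and 1.05 to 2.09 in ΔJ mice. The list of 12 factors that act at the globin locus, all measured, gave 0 called, and summed to 4.09 to 4.17 in wild-type and 3.93 to 4.21 in ΔJ mice. In it the erythroid transcription factors *Gata1* and *Klf1* had log2 fold changes of -0.087 and -0.16, and the list's median was -0.051 beside -0.027 for all probe sets.

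The labelled tissue held its defining genes: all 13 listed genes of mature OSNs were measured, on 16 probe sets, and 0 were called. Their summed level was 6.94 to 7.03 in wild-type and 6.76 to 7.05 in ΔJ mice. *Omp*, the marker of mature OSNs, had a log2 fold change of 0.036, and *Gnal*, the α subunit of the olfactory G protein, -0.15. Marrow granulocyte genes (9 of 9 measured, *Mpo* 0.026, *Elane* -0.070) summed to 3.01 to 3.54 in wild-type and 2.98 to 3.45 in ΔJ mice, and endothelial genes (7 of 7 measured, *Pecam1* -0.078, *Cdh5* -0.044) to 2.08 to 2.22 in both genotypes, with 0 called in either list. *Ltf*, with a wild-type mean of 2.86, made up most of the granulocyte sum, which therefore says little of the other genes. In that list 6 probe sets were higher and 3 lower in ΔJ mice. Its largest changes were 0.29 for *Ngp* and 0.25 for both *S100a8* and *S100a9*. In none of these lists did limma over all probe sets give a gene an unadjusted p under 0.05.

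To see which genes varied from mouse to mouse as the members did, the means of each genotype within each replicate set were removed, and residuals were correlated over the 12 arrays with those of 21789 probe sets of a single symbol. The 3 most alike were *Fbxo16*, *Mob3b* and *Olfr676* for *Olfr69* (Pearson r 0.958 to 0.940), *Slc36a2*, *Olfr1303* and *Vmn1r80* for *Olfr68* (0.919 to 0.907), and *Tbc1d5*, *Terf2ip* and *Gm17484* for *Olfr67* (0.975 to 0.967). They were *Amh*, *Olfr371* and *Ooep* for *Olfr66* (0.954 to 0.944), *Olfr1200*, *Tet1* and *Olfml2a* for *Olfr64* (0.986 to 0.984), and *Rffl*, *Olfr1368* and *Mrgprf* for *Olfr65* (0.983 to 0.968). For the globin genes they were *Krt13*, *Avp* and *Insyn1* for *Hbb-bh2* (0.983 to 0.975), *Haus4*, *Psmb6* and *Ncbp2* for *Hbb-bh1* (0.974 to 0.965), and *Acer1*, *E230025N22Rik* and *Myo18b* for *Hbb-y* (0.939 to 0.908). Such values are the highest of 21789 over few arrays and are a description only. None of them is among the 31 receptor probe sets around the locus. Among the members, *Olfr64* went with *Olfr65* (r = 0.876) and with *Olfr67* (r = 0.884), although *Olfr64* alone of these 3 was called. ΔJ replicate 5 was the lowest mouse in all 3, at -2.75 for *Olfr64*, -1.79 for *Olfr65* and -2.59 for *Olfr67*. How far this 1 mouse sets these r values was not tested. The most negative values were those of *Hbb-bh2* with *Olfr69* (r = -0.79) and with *Olfr67* (r = -0.75). With the first adult β-globin probe set the members' residuals had r from -0.53 (*Olfr69*) to 0.40 (*Hbb-bh2*).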

How the data were processed

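The values deposited by the authors are log2 signals, 1 per probe set (35556) and array (12). Affymetrix Expression Console is named in the processing notes of the submitters, and its background correction and summarization are not stated there. According to the paper's methods, GeneSpring GX shifted each array by its 75th percentile, and a moderated test with Benjamini-Hochberg adjustment was run over the OR probe sets of the study, and a fold criterion of 1.3 was applied. Here the 75th percentile of each array was subtracted from the deposited values. In limma (version 3.58.1, R version 4.3.3), lmFit and eBayes with a genotype term were run over those OR probe sets for receptors and over all probe sets for globin genes. The procedure was tested on simulated data with independent noise and no replicate sets, so that test does not cover the set differences seen here. Symbols came from the platform annotation, in which 21789 probe sets had 1 symbol, 1621 several and 12146 none. Genes named are the 9 members, the first 2 measured genes of each list, the 3 most correlated probe sets per member and the called neighbours within 0.25 Mb. *Olfr631*, *Olfr632*, *Olfr633*, *Olfr635* and the uncalled probe sets of *Olfr624* and *Olfr617* were named after their values were seen. So were the granulocyte genes *Ltf*, *Ngp*, *S100a8* and *S100a9*. Alternatives were other scalings (median, none, quantile), a fit over all probe sets, a filter on dim probe sets, eBayes with trend, sex as a term, day 30 mice alone, blocks by array set and replicate number, each array set alone, and each mouse left out. The members and lists were chosen with earlier results of these data known.

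Whether same-numbered mice of both genotypes are paired is not given in the labels. Their deviations from the group means correlated at 0.365, 0.294, 0.419, 0.441, 0.185 and 0.385 over all probe sets, and the numbers were also used as a block. After the means of the replicate sets were removed these values were -0.14 to 0.078, so the data gave no pairing of mice beyond the sets. Separate animals gave the replicates, 1 array each, and no 2 arrays held identical values.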

Additional observations from a re-analysis of the deposited data

Results flagged for a closer look

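In 2 of the 18 groups of 6 mice examined (9 genes, 2 genotypes), 1 mouse stood apart by Dixon's criterion, in which the gap to the nearest mouse, divided by the range of the group, exceeds its 95% critical value. Chance gives about 1 such group in 20. In *Hbb-bh2*, ΔJ replicate 5 was the highest at -2.40, with the nearest mouse at -2.66 (gap over range 0.661). In *Olfr64*, wild-type replicate 3 was the highest at -0.70, with the nearest mouse at -0.95 (gap over range 0.651).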

How the results depend on the processing

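The 4 receptor calls were made under every setting tried except 2. Fitting and adjusting over all probe sets left 3, without *Olfr69*, but 4 when the replicate set was also a block (added after the data were seen), and replicates 4 to 6 alone left 2, where *Olfr66* had -0.86 (adjusted p = 0.0656 from limma) and *Olfr64* -1.05 (adjusted p = 0.105 from limma). Leaving out any 1 mouse gave 4 to 4 receptors and 0 to 0 globin genes. The replicate block and the replicate set as a block changed no member's call; with the replicate block, called receptors numbered 4 and globin genes 0. Of neighbour differences 2 passed, 0 with day 30 mice alone and 1 to 2 when 1 mouse was left out. In the day 30 mice no pair could pass by itself, so that count decides nothing. With the replicate block 0 passed (exact sign-flip test, lowest adjusted p = 0.0625). The 2 pairs that had passed were at the smallest possible p of that test, 0.0312. Within 1 array set alone, 3 mice against 3, the exact test cannot pass and gave no count. *Olfr65*, near 0, turned to -0.027 with sex in the model, -0.10 in day 30 mice and -0.068 in replicates 4 to 6. In day 30 mice *Olfr69* minus *Olfr68* turned to 0.16 and *Hbb-bh2* minus *Hbb-bh1* to 0.069. Leaving out 1 mouse spanned -0.044 to 0.17 for *Hbb-bh1*, -0.019 to 0.065 for *Hbb-bh2*, -0.078 to 0.16 for *Olfr65* and -0.39 to -0.028 for *Olfr67*, and -0.44 to -0.0089 for *Olfr67* minus *Hbb-bh2*, 0.12 to 0.31 for *Hbb-bh1* minus *Hbb-y*, -0.11 to 0.11 for *Hbb-bh2* minus *Hbb-bh1*, -0.23 to 0.065 for *Olfr69* minus *Olfr68* and -0.15 to 0.20 for *Olfr66* minus *Olfr64*. The cause was not tested. A filter at the *Kdm5d* mean of females kept 29728 probe sets and dropped *Hbb-bh1*. Scaling moved the median of all genes by under 0.1. Signal over background of single probe sets is unknown and limits the dim members.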
